A study of Sus scrofa with 70 samples.

Results

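Isoform usage, the share of each transcript in the summed TPM of its gene, was compared between the vesicular gland and the bulbourethral gland of boars. The deposited table held 133722 transcripts of 35552 genes, of which 16170 genes had 2 or more transcripts. The genes described here are the 4935 that had at least 2 transcripts and at least 5 TPM in all 12 libraries of both glands, with 47938 transcripts in all. A difference of 10 points needs a mean share of at least 5%, and this was reached by 13811 transcripts, with at least 1 in each of the 4935 genes. The other 34127 transcripts were not tested. At the limit on gene level, HNRNPLL lay just inside with 5.002 TPM in its lowest library and ULK1 just outside with 4.9997 TPM.

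The study profiled 5 reproductive glands of adult boars aged 12 months from the Banna mini-pig inbred line (BMI) and from Diannan small-ear pigs (DSE), the non-inbred stock from which that line was bred. Short-read RNA-seq was available for 6 vesicular and 6 bulbourethral glands, 3 BMI and 3 DSE for each, together with 1 long-read Iso-seq library for each breed and gland. No animal received a treatment. The labels do not say which samples came from the same animal, so the p-values measure the spread between these samples only.

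A gene can give several mature RNAs through the choice of promoter, of exons and of the end of the transcript. Cassette exons are kept or skipped, mutually exclusive exons replace each other, and a retained intron stays in the RNA. The vesicular gland supplies most of the protein of boar seminal plasma, the spermadhesins in particular, while the bulbourethral gland secretes the sialomucin gel that closes the ejaculate.

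The markers of both secretions followed the labels. Genes of vesicular secretion summed to 395202 to 526392 TPM in vesicular and to 9.71 to 180 TPM in bulbourethral libraries (7 of 10 listed genes were found, and 6 did not overlap between the glands). Genes of mucous glands summed to 175 to 392 TPM in vesicular and to 17636 to 36938 TPM in bulbourethral libraries (10 of 14 found, 6 without overlap). TFF3, a mucous trefoil peptide, ranged from 8225 to 14956 TPM in bulbourethral gland and lay at or below 0.0898 TPM in vesicular gland. Markers of other cell types also differed. Smooth muscle genes (10 of 10 found) summed to 706 to 5445 TPM in vesicular and to 233 to 751 TPM in bulbourethral gland, and luminal epithelium genes (10 of 10) to 1282 to 2139 and to 3140 to 3770 TPM. Skeletal muscle genes (12 of 16) reached 1829 TPM in DSE bulbourethral gland replicate 3 and 489 TPM in BMI bulbourethral gland replicate 1, against 1.12 to 18.7 TPM in vesicular gland, while the other 4 bulbourethral libraries had 2.14 to 40.2 TPM. T cell and macrophage genes (10 of 10) summed to 26.6 to 151 TPM in vesicular and to 394 to 700 TPM in bulbourethral gland, plasma and B cell genes (8 of 8) to 4.39 to 8.74 and to 25.2 to 294 TPM, and basal epithelium genes (5 of 6) to 34.6 to 93.4 and to 106 to 385 TPM. LYZ gave much of the T cell and macrophage sum in bulbourethral gland (median 282 TPM, against 1.68 TPM in vesicular gland). CD68 had the higher median in vesicular gland (17.8 against 9.97 TPM). JCHAIN gave most of the plasma and B cell sum in bulbourethral gland (median 114 TPM, against 2.04 TPM in vesicular gland). CD79B was higher in all vesicular libraries (0.493 to 3.46 against 0.0763 to 0.338 TPM). Epididymis genes (7 of 10) summed to 1059.5 to 6685 TPM in vesicular and to 47.2 to 299 TPM in bulbourethral gland. Nearly all of this was DEFB1, a defensin, while GPX5, a glutathione peroxidase of the epididymis, had 2.01 to 13.6 TPM in vesicular gland and was listed at 0 in bulbourethral gland. The sums of fibroblast, endothelium and germ cell genes overlapped between the glands. In bulk tissue, fewer cells of a type and less RNA per cell cannot be told apart, and the part of cell composition in the differences below was not tested. The 10 most abundant transcripts took 47.3% to 64.7% of the TPM in vesicular and 26.4% to 42.5% in bulbourethral gland. The genes compared therefore had less of the library in vesicular gland (25.0% to 38.0% against 44.5% to 56.4%), and 87.8% of them had the lower median TPM there. Their median level was 20.01 TPM in vesicular and 36.2 TPM in bulbourethral gland. TPM keeps no read count, so the number of reads behind a share is unknown.

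Exons by which 2 called transcripts of a gene differ are shown first, since each is a defined piece of RNA. In CAMSAP3 and MAPK14 the form that was lower in vesicular gland still held the larger share of the 2 in both glands. The sequences were read from the Sscrofa11.1 reference and are written 5′ to 3′ on the strand of the gene. Capitals mark the exon and lower case the 20 flanking bases of intron on each side. Each exon shown equals a coding exon of the RefSeq annotation at both ends.
DCTN2 cassette exon, chr5:22807221-22807226, minus strand, 6 bases: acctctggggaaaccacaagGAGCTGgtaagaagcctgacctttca
CALCOCO1 cassette exon, chr5:18912403-18912474, minus strand, 72 bases: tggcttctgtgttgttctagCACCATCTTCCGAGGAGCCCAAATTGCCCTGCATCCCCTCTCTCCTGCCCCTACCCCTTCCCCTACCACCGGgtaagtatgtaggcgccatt
CAMSAP3 cassette exon, chr2:71538776-71538823, minus strand, 48 bases: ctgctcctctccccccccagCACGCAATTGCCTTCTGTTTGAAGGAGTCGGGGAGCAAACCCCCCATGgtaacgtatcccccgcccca
OGDH exon of the transcript with the higher share in vesicular gland, chr18:50647623-50647725, minus strand, 103 bases: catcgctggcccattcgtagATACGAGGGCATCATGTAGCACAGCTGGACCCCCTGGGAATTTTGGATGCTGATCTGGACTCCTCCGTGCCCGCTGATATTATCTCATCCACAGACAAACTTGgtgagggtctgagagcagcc
OGDH exon of the transcript with the lower share, chr18:50647848-50647938, minus strand, 91 bases: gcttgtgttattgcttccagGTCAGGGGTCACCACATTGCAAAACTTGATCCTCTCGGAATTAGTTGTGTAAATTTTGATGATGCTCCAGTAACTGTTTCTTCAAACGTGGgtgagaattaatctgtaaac
MAPK14 exon of the transcript with the higher share, chr7:31850912-31850991, plus strand, 80 bases: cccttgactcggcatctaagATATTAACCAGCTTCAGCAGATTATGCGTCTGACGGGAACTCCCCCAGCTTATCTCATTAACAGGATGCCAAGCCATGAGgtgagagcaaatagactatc
MAPK14 exon of the transcript with the lower share, chr7:31846030-31846109, plus strand, 80 bases: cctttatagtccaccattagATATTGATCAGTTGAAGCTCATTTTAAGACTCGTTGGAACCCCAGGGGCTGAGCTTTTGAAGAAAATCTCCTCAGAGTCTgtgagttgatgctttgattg
The 3 cassette exons have lengths divisible by 3 and were included more in vesicular gland. Of the 25 cassette and mutually exclusive exons that were read from the genome, 24 were preceded by AG and followed by GT in the intron, and 16 matched a RefSeq coding exon.

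Of the 13811 transcripts, 649 differed between the glands by at least 10 points with an adjusted p below 0.05, or 4.7%, in 443 of the 4935 genes (8.98%). The share was higher in vesicular gland for 304 transcripts (2.2%) and lower for 345 (2.5%). The median absolute difference was 17.9 points among these 649 and 4.01 points among all transcripts tested, and the median SD over the 6 libraries of a gland was 6.92 points in vesicular and 5.70 points in bulbourethral gland. A difference of at least 20 points was found for 278 transcripts and one of at least 40 points for 40. The 6 and 6 libraries did not overlap for 416 of the 649, where 4.58% of all transcripts tested did not overlap. With BMI libraries alone 22 transcripts passed, and with DSE libraries alone 16.

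**Figure D1:**
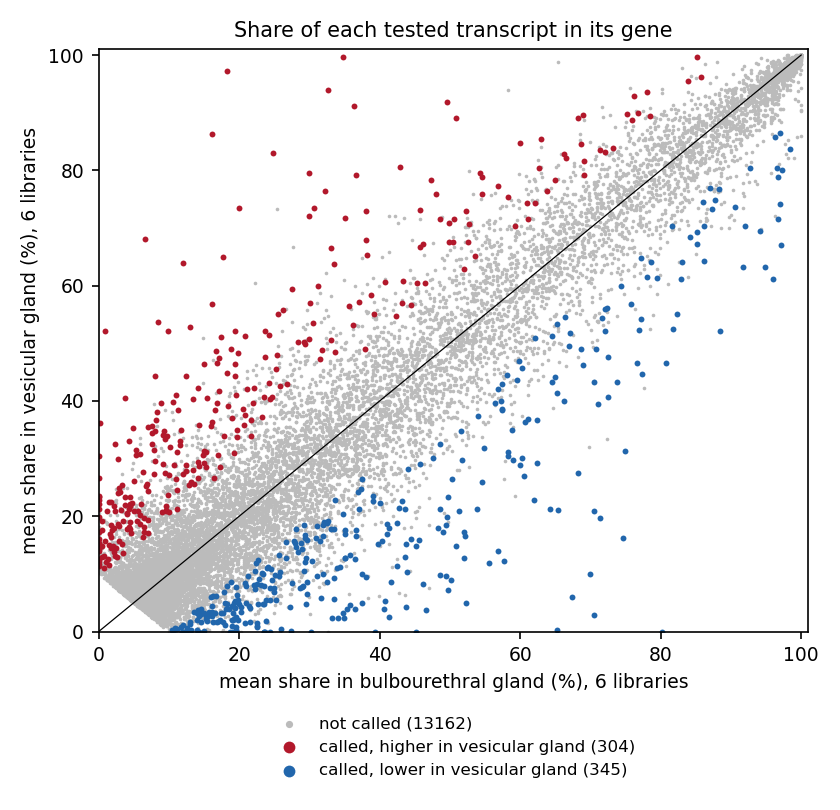
Mean share of each tested transcript in bulbourethral gland (x axis, percent, 6 libraries) against vesicular gland (y axis, percent, 6 libraries), 1 point per transcript. The 304 transcripts called higher in vesicular gland lie above the diagonal, the 345 called lower lie below it, and the grey points are the transcripts without a call.

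The gland by breed interaction passed for 0 transcripts by limma with Benjamini-Hochberg adjustment (0.0%), and 461 (3.34%) had an unadjusted p below 0.05. Genes of low and high level were called at similar rates. A call was made in 7.83% of 1495 genes under 20 TPM, 9.42% of 2028 genes from 20 to 50 TPM, 9.87% of 760 genes from 50 to 100 TPM and 9.20% of 652 genes of 100 TPM or more. Isoforms from Iso-seq and annotated transcripts were also called at like rates, with 225 of 5103 annotated transcripts (4.41%), 160 of 3441 Iso-seq isoforms that join annotated splice sites in another way (4.65%) and 256 of 5049 Iso-seq isoforms with a splice site outside the annotation (5.07%).

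In 184 genes 1 transcript was called higher and another lower, so that isoforms traded places. In 109 genes calls were only higher and in 150 only lower. The transcript with the largest mean share differed between the glands in 585 genes (11.9%), and in 68 of these both leading transcripts were called in opposite directions. This last count was 39 without BMI vesicular gland replicate 3 and 43 without either DSE vesicular gland replicate 3 or BMI bulbourethral gland replicate 3. Among genes with a symbol and pairs whose libraries did not overlap in either transcript, the 12 with the largest differences are described next.

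WFDC1, a secreted protein with a whey acidic protein domain, had the largest difference. Its transcript ENSSSCT00000040268 (chr6:4333732-4365524) held 91.5% to 100% of the gene in the vesicular libraries, with a median of 100%. In bulbourethral gland it held 8.81% to 28.3%, with a median of 18.4%. The difference was 79.0 ± 3.78 points (SE, n = 6 and 6, adjusted p = 2.27e-06). The other transcript, ENSSSCT00000026718, which starts 488 bases further downstream, was listed at 0 in all 6 vesicular libraries and held 70.7% to 91.2% in bulbourethral gland. The gene had a median of 17.1 TPM in vesicular and 109 TPM in bulbourethral gland, so the transcript of the vesicular gland was nearly the whole of a lower output.

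PTPN18, a protein tyrosine phosphatase, and DEGS2, an enzyme that desaturates and hydroxylates sphingolipids, exchanged their main transcripts. The 11-exon transcript of PTPN18 held 73.5% to 98.8% in vesicular gland (median 85.8%) and 8.67% to 43.7% in bulbourethral gland (median 11.0%), a difference of 70.2 ± 6.17 points (adjusted p = 0.000167). The 15-exon transcript of this gene held 35.0% to 54.7% in bulbourethral and 0% to 13.9% in vesicular gland. The shorter form thus led in all 6 vesicular libraries, and the libraries of the glands did not overlap for either. DEGS2 used first exons whose starts lay 13837 bases apart. Its annotated transcript ENSSSCT00000002790 (chr7:121058105-121076328) took 98.5% to 100% in vesicular gland and 16.8% to 53.6% in bulbourethral gland (medians 100% and 32.0%), a difference of 64.9 ± 5.77 points (adjusted p = 0.00017). The bulbourethral form, an isoform from Iso-seq with the more distant start, was at most 1.5% in any vesicular library, and the predicted coding sequences were 972 and 1101 bases.

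CDPF1 and PSMC3 showed the same kind of exchange. For CDPF1, a small protein with a cysteine-rich domain, an isoform with an additional upstream start held 90.2% to 96.9% (median 94.8%) in vesicular and 22.0% to 44.0% (median 33.5%) in bulbourethral gland, and the difference was 61.3 ± 3.29 points (adjusted p = 3.83e-06). The coding sequence of both CDPF1 transcripts was the same. PSMC3 encodes an ATPase of the proteasome regulatory particle. Its transcript ENSSSCT00000060329 held 69.8% to 93.5% in vesicular gland (median 85.4%) and 19.0% to 27.4% in bulbourethral gland (median 25.9%), with a difference of 58.3 ± 3.79 points (adjusted p = 1.7e-05). No library of one gland reached the range of the other for either gene.

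Several of these genes changed their first exon and kept the same predicted protein. SGMS1, the sphingomyelin synthase of the Golgi, had starts 211121 bases apart (chr14:99147166-99244196 and chr14:99147166-99455317). The isoform with the near start held 31.0% to 73.8% in vesicular gland (median 51.8%) and at most 3.43% in bulbourethral gland, where the median was 0, and differed by 51.2 ± 6.27 points (adjusted p = 0.00103). The isoform with the far start held 38.4% to 69.9% in bulbourethral and 3.29% to 23.1% in vesicular gland, a difference of -42.8 ± 5.57 points. EGFL7, a secreted factor of endothelial cells on the unplaced scaffold AEMK02000682.1, shifted by 51.9 ± 6.30 points (adjusted p = 0.000986) toward the isoform with the downstream start. BAD, a pro-apoptotic partner of BCL2 proteins, shifted by 47.2 ± 5.38 points (adjusted p = 0.000758) between first exons that begin 45 bases apart. All 3 genes had identical predicted coding sequences in both isoforms.

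ELF5, an ETS transcription factor of glandular epithelia, had the highest level in vesicular gland of the 12 genes, at a median of 275 TPM in vesicular and 86.0 TPM in bulbourethral gland. The annotated transcript ENSSSCT00000014527 (chr2:26459088-26485903) held 28.1% to 46.2% in vesicular gland (median 41.9%) and 0% to 7.45% in bulbourethral gland (median 4.0%). The difference was 36.9 ± 3.16 points (adjusted p = 0.000162). The isoform with the first exon 2173 bases upstream held 68.8% to 83.0% in bulbourethral and 20.5% to 45.7% in vesicular gland (medians 73.8% and 28.6%), a difference of -43.6 ± 4.57 points (adjusted p = 0.000448). Both isoforms carry the same predicted coding sequence of 768 bases.

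The last 3 of the 12 genes were VMP1, ANXA11 and TOX4. VMP1, an endoplasmic reticulum membrane protein needed to form autophagosomes, shifted by 49.5 ± 5.98 points (adjusted p = 0.000986) toward a transcript whose start lies 19826 bases downstream. ANXA11, a calcium-dependent phospholipid-binding protein, had a 13-exon isoform that held 44.7% to 61.4% in bulbourethral gland and 0% to 20.8% in vesicular gland, with medians of 49.98% and 0 (-47.3 ± 4.58 points, adjusted p = 0.000316). For TOX4, a chromatin protein with an HMG box, an isoform from Iso-seq held 37.6% to 70.9% in vesicular and 0% to 26.5% in bulbourethral gland (45.3 ± 5.69 points, adjusted p = 0.00118). All calls in these 12 genes remained when any 1 of the 12 libraries was left out.

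**Figure D2:**
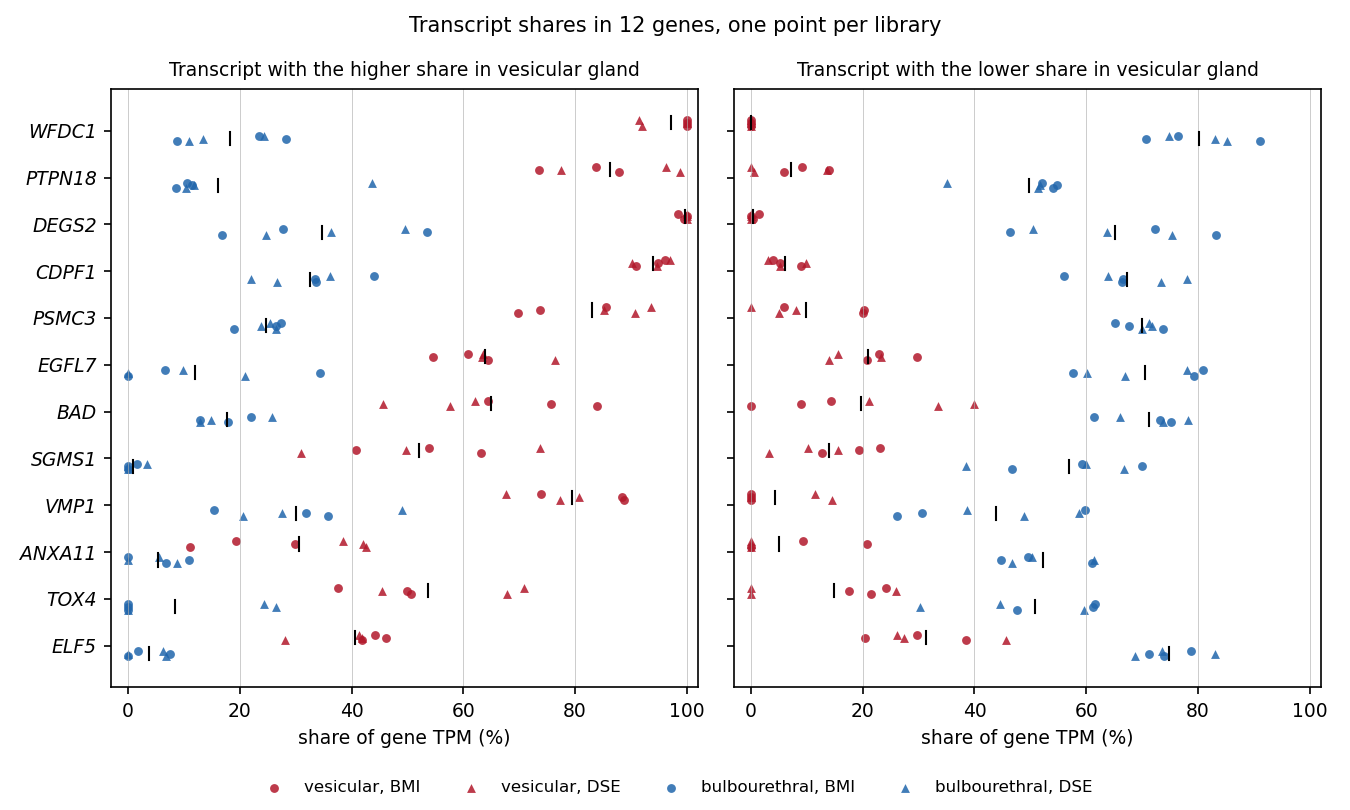
Share of gene TPM (x axis, percent) of the transcript with the higher share in vesicular gland (left) and of that with the lower share (right) in 12 genes, 1 point per library (circles BMI, triangles DSE) with a bar at the mean of each gland. The red vesicular and blue bulbourethral points do not overlap in any gene. DSE bulbourethral gland replicate 3 lies at 43.7% for PTPN18, apart from the other bulbourethral libraries.

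The most raised and the most lowered transcript of each of the 184 genes were compared exon by exon, and alternative first exons were the most frequent single difference. They made up 47 pairs (25.5%), against 11.7% of the pairs of leading transcripts in 3539 genes without a call. Several differences at once were found in 34 pairs (18.5%, against 33.3%), a single cassette exon in 24 (13.0%, against 11.3%) and a retained intron in 20 (10.9%, against 10.7%). The remaining 59 pairs fell in 9 smaller classes, of which a later start on the same exons was the largest with 13. The predicted coding sequence was the same in 50 pairs (27.2%, against 15.2%) and different in 126 (68.5%, against 80.5%). These shares describe the pairs and were not tested.

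**Figure D3:**
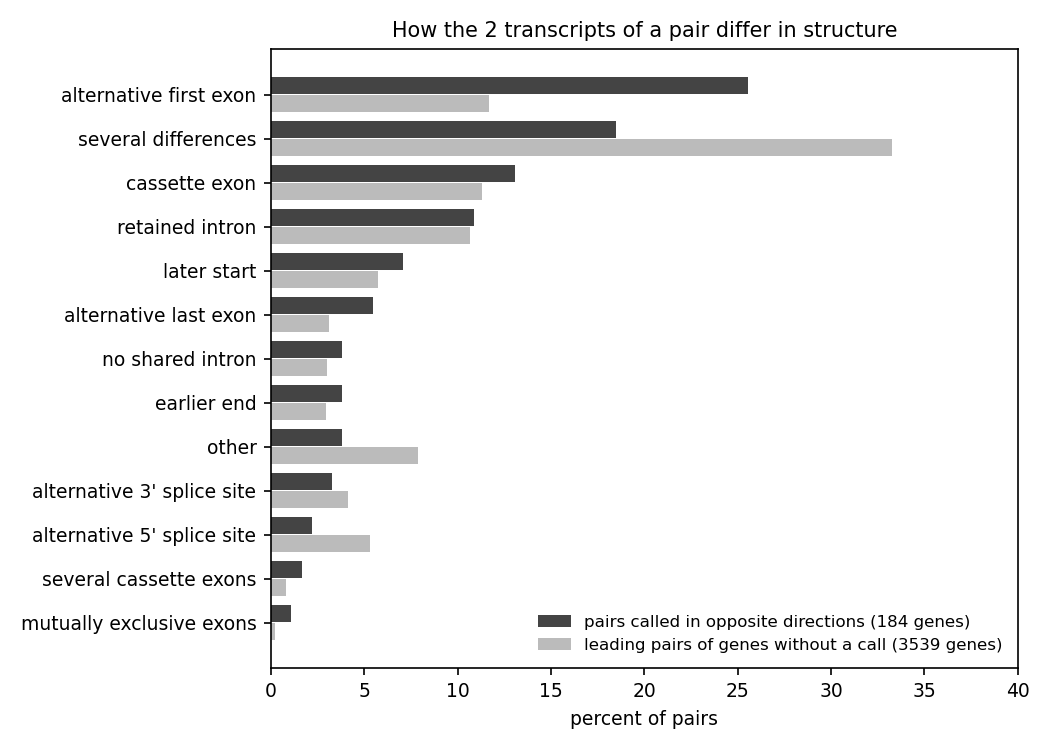
Percent of pairs (x axis) in each class of structural difference (y axis), for the 184 genes with transcripts called in opposite directions (dark bars) and for the leading pairs of 3539 genes without a call (light bars). Alternative first exons stand at 25.5% against 11.7%, while cassette exons and retained introns differ by under 2 points.

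Of the 24 cassette exons, 18 were included more in vesicular and 6 more in bulbourethral gland. They were 6 to 984 bases long with a median of 87, and 11 of them (45.8%) had a length divisible by 3, against 51.4% of the 399 cassette exons of pairs without a call. SCRIB, a scaffold protein of epithelial cell polarity, had the cassette exon with the largest exchange supported in both directions by libraries without overlap. The 35-exon isoform with the exon held 61.1% to 82.8% in vesicular gland (median 72.8%) and 20.3% to 36.5% in bulbourethral gland (median 32.3%), a difference of 42.8 ± 4.18 points (adjusted p = 0.000316). The 34-exon isoform without it held 12.1% to 35.7% and 59.5% to 74.6%. Both SCRIB isoforms have a predicted coding sequence of 1554 bases and are predicted targets of nonsense-mediated mRNA decay. The same prediction holds for the raised isoforms of TOX4, described above, and of SUN2 and CIZ1, described below. In the other glands of the series the form with the exon had a median share of 39.96% in prostate, 68.3% in epididymis and 86.3% in testis.

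The cassette exons printed above were chosen after their values were seen, because both transcripts of each gene were called and the exons are coding in RefSeq. DCTN2, the dynamitin subunit of dynactin, differed by the 6-base exon GAGCTG. The form with it held 38.6% to 50.1% in vesicular gland (median 47.2%) and 18.02% to 31.8% in bulbourethral gland (median 26.2%), with a difference of 20.3 ± 3.61 points (adjusted p = 0.00878). The form without it differed by -21.8 ± 3.06 points, and the libraries did not overlap for either form. CALCOCO1, an autophagy receptor, had the form with the 72-base exon at 21.2% to 48.4% (median 39.8%) against 10.2% to 26.8% (median 19.9%), a difference of 18.1 ± 3.55 points (adjusted p = 0.0144). CAMSAP3, which binds the minus ends of microtubules in epithelia, had the form with the 48-base exon at 20.1% to 41.0% against 6.24% to 16.5%, a difference of 14.7 ± 3.38 points (adjusted p = 0.0293). The CAMSAP3 ranges did not overlap and those of CALCOCO1 did. The call for the CALCOCO1 form without the exon (adjusted p = 0.0405) held in 2 of the 12 fits that left out a library, and that for the CAMSAP3 form with the exon in 4. NPEPPS, a cytosolic aminopeptidase, had a form listed at 0 in all 6 vesicular libraries and at 29.2% to 58.7% in bulbourethral gland (-45.2 ± 4.35 points, adjusted p = 0.000316). The NPEPPS form with an additional 172-base exon differed by 28.5 ± 6.96 points (adjusted p = 0.0377) with overlapping libraries, and this call held in 3 of 12 such fits.

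Exons that replace each other set apart 2 pairs, OGDH and MAPK14, which were also named after their values were seen. OGDH encodes the E1 subunit of the 2-oxoglutarate dehydrogenase complex of the citric acid cycle. The form with the 103-base exon held 65.1% to 85.1% in vesicular gland (median 77.2%) and 33.7% to 63.8% in bulbourethral gland (median 49.7%), a difference of 27.9 ± 5.33 points (adjusted p = 0.0125). The form with the 91-base exon held 0% to 17.4% and 24.0% to 44.9%, a difference of -24.1 ± 4.59 points (adjusted p = 0.0122). All vesicular libraries lay apart from all bulbourethral ones for both forms. The call for the 91-base form was lost on a logit scale. Across the other glands the 103-base form had medians of 61.0% in prostate, 78.2% in epididymis and 86.6% in testis. MAPK14, the stress-activated kinase p38 alpha, has 2 exons of 80 bases each that replace each other. The form with the downstream exon held 27.2% to 44.8% in vesicular gland (median 37.2%) and 15.5% to 30.2% in bulbourethral gland (median 20.6%), a difference of 15.1 ± 3.91 points (adjusted p = 0.0472). The libraries overlapped, and this call held in 2 of the 12 fits that left out a library.

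Retained introns went mostly toward the bulbourethral gland, where the isoform with the intron had the higher share in 15 of the 20 pairs, against 5 in vesicular gland. The sources differ on whether the RNA-seq libraries were made by rRNA depletion (labels) or by poly-T beads (methods), which bears on how much unspliced RNA they hold. RBM47, an RNA-binding protein with roles in splicing and editing, had a 995-base stretch (chr8:31509369-31510363) that was exonic in an isoform with 39.5% to 58.8% in bulbourethral gland (median 51.9%) and 0% to 20.7% in vesicular gland (median 7.13%). The difference was -41.1 ± 5.05 points (adjusted p = 0.00105) without overlap. AGPAT5, an acyltransferase of phospholipid synthesis, had an isoform that keeps a 45-base stretch (chr15:37801352-37801396), which its annotated transcript leaves out as an intron. That isoform held 38.3% to 64.2% in bulbourethral and 11.7% to 26.0% in vesicular gland (-32.6 ± 4.74 points, adjusted p = 0.00284). No full-length Iso-seq read of the annotated transcript was found in either gland. SUN2, a protein of the inner nuclear membrane, had an isoform that keeps a 188-base intron (chr5:9292786-9292973) at 39.9% to 74.0% against 11.6% to 43.7% (-33.6 ± 5.59 points, adjusted p = 0.00642), with overlap between the glands. These are shares of single isoforms, and the total retention of each intron was not measured. In all 3 genes the coding sequence was the same in the form that had removed the intron.

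Alternative ends and splice sites gave fewer pairs. CCND1, cyclin D1 of the G1 phase, ended 5006 bases earlier in an isoform that held 38.4% to 56.8% in vesicular gland (median 50.6%) and 0% to 36.5% in bulbourethral gland (median 23.4%). The difference was 28.4 ± 6.22 points (adjusted p = 0.0231) without overlap, but the call was lost without DSE vesicular gland replicate 2, when the difference was 27.5 points (adjusted p = 0.0563). CIZ1, a nuclear protein that binds a CDK inhibitor, had an isoform with an earlier last exon at 22.6% to 50.9% against 0% to 23.1% (30.5 ± 6.03 points, adjusted p = 0.0149), with overlap in DSE bulbourethral gland replicate 3. Splice sites that were shifted within an exon separated TMEM263 (-58.5 ± 11.4 points for the lowered form, adjusted p = 0.0136), RNF114 (-23.6 ± 3.92, adjusted p = 0.00642), SEPTIN8 (-27.2 ± 5.27, adjusted p = 0.0134) and PCIF1 (-23.0 ± 4.17, adjusted p = 0.00982). The RNF114 form, of a ubiquitin ligase, was listed at 0 in all vesicular libraries. The SE of TMEM263 was the largest of these 4, and its libraries overlapped.

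Iso-seq libraries gave counts of full-length reads for the same isoforms, from 265410 to 388569 reads a library. The reads of both breeds were summed in each gland, and the share of the raised transcript within its pair was set beside the same share in RNA-seq. Of the 184 pairs, 65 had at least 10 reads of the pair in each gland. The long-read share of the raised transcript was higher in vesicular gland in 36 of the 65, lower in 9 and equal in 20, with a median difference of 1.25 points. The 20 equal pairs had reads of the same transcript alone in both glands, as for VMP1 (0 of 50 and 0 of 62 reads for the raised transcript) and AGPAT5 (0 of 91 and 0 of 40). In the other 45 pairs, with at least 1 read of each transcript, the median difference was 10.6 points against 31.5 points in RNA-seq. With 1 library per breed and gland there is no replicate check of this, and intervals below cover counting error only.

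Among these 45 pairs, the long reads lay nearer to the RNA-seq for some classes of structure than for others. For alternative first exons the difference was positive in 14 of 14 pairs with a median of 26.7 points, where RNA-seq had 36.9. For cassette exons it was positive in 8 of 8 with a median of 20.04 points, where RNA-seq had 20.2. For retained introns it was positive in 5 of 9 with a median of 0.220 points, where RNA-seq had 19.9. The number of pairs in each class is small and the difference between classes was not tested.

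ELF5 had the isoform with the downstream first exon in 190 of 295 reads in vesicular gland (64.4%, Wilson 95% interval 58.8% to 69.7%) and in 7 of 54 in bulbourethral gland (13.0%, 6.42% to 24.4%). SGMS1 had its near-start isoform in 65 of 132 reads (49.2%, 40.9% to 57.7%) and in 11 of 129 (8.53%, 4.83% to 14.6%). CALCOCO1 had the form with the exon in 33 of 64 reads of its pair (51.6%, 39.6% to 63.4%) and in 9 of 71 (12.7%, 6.81% to 22.4%). In these 3 genes the intervals of the glands lay apart. OGDH had the 103-base exon in 43 of 59 reads (72.9%, 60.4% to 82.6%) and in 28 of 55 (50.9%, 38.1% to 63.6%), where the intervals overlapped. For RBM47 the raised form without the intron had 5 of 189 reads of the pair in vesicular and 2 of 67 in bulbourethral gland, or 2.65% (1.14% to 6.04%) and 2.99% (0.822% to 10.2%). SPARC, a collagen-binding matrix protein, had its spliced form in 1 of 116 and 2 of 715 reads. SUN2 had it in 0 of 46 reads, with a Wilson upper bound of 7.71%, and in 1 of 134. For these 3 retained introns, a gland difference of the size in RNA-seq was not seen in the long reads.

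Other named genes also showed no such difference in the long reads. The DCTN2 form with the 6-base exon had 1 of 28 reads of its pair in vesicular gland (3.57%, 0.633% to 17.7%) and 1 of 43 in bulbourethral gland (2.33%, 0.412% to 12.1%). The raised form had 4 of 142 and 0 of 135 reads for MAPK14, 1 of 38 and 0 of 38 for CCND1, 1 of 75 and 1 of 62 for SEPTIN8, and 0 of 95 and 1 of 120 for FUT2. In these 5 genes nearly all long reads were of the lowered form in both glands. DNAJC3 (1 of 49 and 0 of 36 reads) and PCIF1 (0 of 16 and 0 of 19) had the same pattern. DNM2 and RNF114 had nearly all reads of the raised form in both glands. DNM2 had 20 of 21 and 163 of 178 reads of it, a difference of 3.67 points where the same share of the pair differed by 76.1 points in RNA-seq, and RNF114 had 11 of 11 and 12 of 12.

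For SORBS3 the raised form had 15 of 21 reads in vesicular gland (71.4%, 50.04% to 86.2%) and 20 of 62 in bulbourethral gland (32.3%, 22.0% to 44.6%), and the intervals lay apart. DEGS2, with 8 of 8 and 2 of 15 reads of the raised form, and EGFL7, with 15 of 15 and 0 of 3, differed in the direction of RNA-seq on few reads. ANXA11 went the other way on fewer still, with 1 of 2 and 4 of 4. Of the 12 genes with the largest exchanges, WFDC1, PTPN18 and PSMC3 had no full-length read of either transcript, so that these exchanges rest on RNA-seq alone. SCRIB and CAMSAP3 had 1 and 2 reads of their pairs in all, too few to compare.

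**Figure D4:**
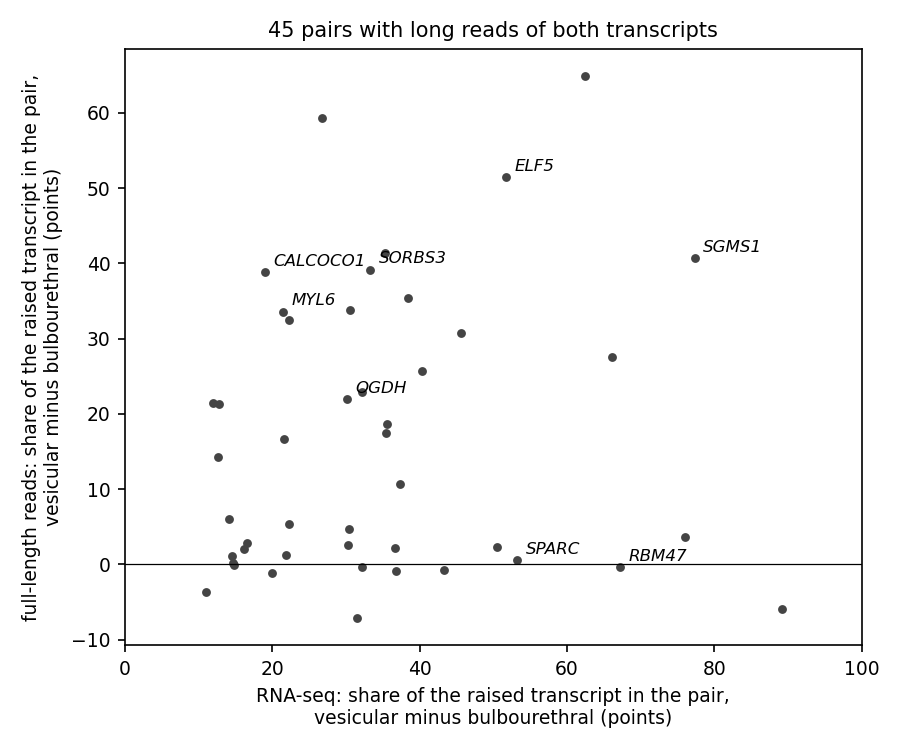
Vesicular minus bulbourethral difference in the share of the raised transcript within its pair, in RNA-seq (x axis, points) and in full-length reads summed over 2 breeds (y axis, points), for the 45 pairs with at least 10 reads in each gland and at least 1 read of each transcript. ELF5 and SGMS1 lie high on both axes, while RBM47 and SPARC lie far to the right near 0 on the y axis.

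The same genes were then read by role, with lists of genes chosen with earlier results of these data known. Smooth muscle and actin cytoskeleton genes were called in 9 of 26 genes tested (34.6%), beside 8.98% over all genes. The list had 3.54 tested transcripts per gene against 2.80 over all, and by transcript 15.2% were called against 4.7%, 7 in each direction. SMTN, smoothelin, had an isoform at 17.7% to 43.1% in vesicular gland (median 24.8%) that was listed at 0 in all bulbourethral libraries (26.6 ± 3.22 points, adjusted p = 0.000986). CALD1, caldesmon, had a 14-exon isoform at 14.1% to 51.2% in bulbourethral gland (median 38.2%) and at 0% to 11.2% in vesicular gland (median 3.35%), a difference of -31.1 ± 5.50 points (adjusted p = 0.0087). SORBS3, the focal adhesion adaptor vinexin, lost share in the form with a start 15095 bases downstream (-29.3 ± 4.90 points, adjusted p = 0.00642). The libraries did not overlap for these forms. MYL6, the essential light chain of smooth and non-muscle myosin, was named after its values were seen. The form that skips a 46-base exon held 72.7% to 83.2% in vesicular gland (median 80.2%) and 44.99% to 63.5% in bulbourethral gland (median 56.1%), a difference of 24.4 ± 3.6 points (adjusted p = 0.00314). In long reads that form had 27 of 34 reads (79.4%, 63.2% to 89.7%) and 11 of 24 (45.8%, 27.9% to 64.9%). The other called genes of the list were LMO7, PALLD, PDLIM7, TPM1 and TPM4. Of the 10 smooth muscle markers, 4 lay higher in all vesicular than in all bulbourethral libraries. MYH11 (median 261 against 20.8 TPM) and ACTG2 (327 against 3.97 TPM) were among them. SMTN, itself a marker of that list, alone had the lower median in vesicular gland (59.1 against 64.9 TPM), with overlap. The part of these marker levels in the differences above was not tested.

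Genes described as targets of the epithelial splicing factors ESRP1 and ESRP2 were called in 5 of 15 (33.3%), with 13.0% of their transcripts called and 4.60 tested transcripts per gene. Those described here are SCRIB, given above, CD44, ESRP1 and DNM2. CD44, the hyaluronan receptor, had an 11-exon form at 21.4% to 43.5% in vesicular gland (median 35.1%) and 0% to 14.1% in bulbourethral gland (median 9.995%), a difference of 24.9 ± 3.77 points (adjusted p = 0.00364). Its 17-exon form held 28.4% to 46.6% and 61.3% to 70.9%, a difference of -26.3 ± 3.52 points (adjusted p = 0.00169). The short and the long form of CD44 each lay apart in the 2 glands. ESRP1 itself had a 17-exon isoform at 3.07% to 21.4% in vesicular and 30.6% to 52.8% in bulbourethral gland (-28.6 ± 4.43 points, adjusted p = 0.00411). In long reads that isoform was rare in both glands, with 1 of 12 reads of its pair in bulbourethral gland and 0 of 4 in vesicular gland. Its gene level was 8.63 to 28.4 TPM in vesicular and 42.6 to 66.3 TPM in bulbourethral gland, while 6 of the 10 luminal epithelium genes, EPCAM among them, lay lower in all vesicular than in all bulbourethral libraries, and CDH1 (medians 157 and 125 TPM) and CLDN7 (414 and 367 TPM) had the higher median in vesicular gland. The part of these levels in the differences was not tested. For DNM2, a dynamin, the lowered form differed by -13.8 ± 1.96 points (adjusted p = 0.00252), while the call for its raised form (13.7 ± 3.17 points, adjusted p = 0.0303) held in 2 of the 12 fits that left out a library.

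Extracellular matrix genes were called in 7 of 26 (26.9%), with 9.38% of their transcripts called and 3.69 tested transcripts per gene. The count was 3 to 6 when any 1 library was left out. FN1, fibronectin, is itself a major product of the vesicular gland, at a median of 2026 TPM against 22.5 TPM. A 15-exon isoform held 9.56% to 40.2% of it in vesicular and 40.5% to 61.2% in bulbourethral gland (medians 14.9% and 48.2%), a difference of -30.2 ± 5.65 points (adjusted p = 0.0113). DSE vesicular gland replicate 1 lay just below the lowest bulbourethral library and far above the other vesicular ones. The FN1 call was lost with a pseudocount of 0.1 TPM and when replicate number was a block in the fit. SPARC had an isoform that keeps a 248-base intron at 33.9% to 66.4% in bulbourethral and at 3.77% to 14.7% in vesicular gland (-38.7 ± 5.77 points, adjusted p = 0.00336). COL6A3, a chain of collagen VI, differed by 44.2 ± 11.2 points (adjusted p = 0.044) with overlap, and this call held in 3 of 12 such fits. COL12A1, COL18A1, FBLN2 and NID1 were the other called genes.

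Genes of secretion were called nearer to the background. In the early secretory path 6 of 53 genes (11.3%) had a call, with 5.92% of their transcripts called and 2.87 tested transcripts per gene. MIA3, which helps export collagen from the endoplasmic reticulum, had a transcript at 22.0% to 42.5% in vesicular gland (median 29.3%) and at most 0.403% in bulbourethral gland (30.4 ± 2.66 points, adjusted p = 0.000167). DNAJC3, a co-chaperone of the endoplasmic reticulum, shifted by 15.8 ± 2.42 points (adjusted p = 0.00397) with overlap, and CREB3L2, a transcription factor of secretory cells, by -16.9 ± 3.76 points (adjusted p = 0.0249), a call that held in 6 of the 12 fits that left out a library. PDIA4, SEC24A and SSR1 were the others. The count was 11 genes without DSE vesicular gland replicate 1 and 3 at the lowest of the leave-one-out fits. In glycosylation 4 of 21 genes (19.0%) had a call, with 7.94% of their transcripts called and 3 tested transcripts per gene. The count was 8 without DSE vesicular gland replicate 1 and 2 or 3 without any other library. FUT2, the fucosyltransferase of secretor mucosae, had its annotated transcript at 32.1% to 63.3% in vesicular and 71.7% to 88.0% in bulbourethral gland (medians 43.6% and 75.6%), a difference of -32.7 ± 4.47 points (adjusted p = 0.0019). FUT8, the core fucosyltransferase, shifted by 19.6 ± 3.89 points (adjusted p = 0.0149) without overlap, and this call held in all 12 fits. SLC35A2, the UDP-galactose transporter (-17.5 ± 4.25 points, adjusted p = 0.0367), and GNE, which starts sialic acid synthesis (11.3 ± 2.91 points, adjusted p = 0.0459), kept their calls in 3 and 2 of 12.

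Splicing regulators were called in 2 of 48 genes (4.17%), with 2.58% of their transcripts called, and the count was 5 without DSE vesicular gland replicate 1 and 2 or 3 without any other library. The called genes were ESRP1 and RBM47, described above. For genes known for muscle-specific splicing by MBNL, RBFOX and CELF proteins, 4 of 15 (26.7%) had a call. Of their transcripts 8.47% were called, with 3.93 tested transcripts per gene. ANK3, ankyrin G, had an isoform at 0% to 2.19% in vesicular and 6.47% to 28.9% in bulbourethral gland (-18.01 ± 3.10 points, adjusted p = 0.00734). BIN1, a membrane-bending protein (-17.0 ± 3.71 points, adjusted p = 0.023), CAMK2G, a calmodulin kinase (15.5 ± 3.78 points, adjusted p = 0.0375), and SPTAN1, a spectrin (14.7 ± 3.64 points, adjusted p = 0.0399), lost their calls in 5, 9 and 10 of the 12 fits that left out a library. The count of this list ranged from 1 (without BMI vesicular gland replicate 2) to 4 over these 12 fits. It was 3 and 2 without DSE bulbourethral gland replicate 3 and BMI bulbourethral gland replicate 1, the libraries with the most skeletal muscle RNA, and it was also 2 without each of 4 other libraries.

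**Figure D5:**
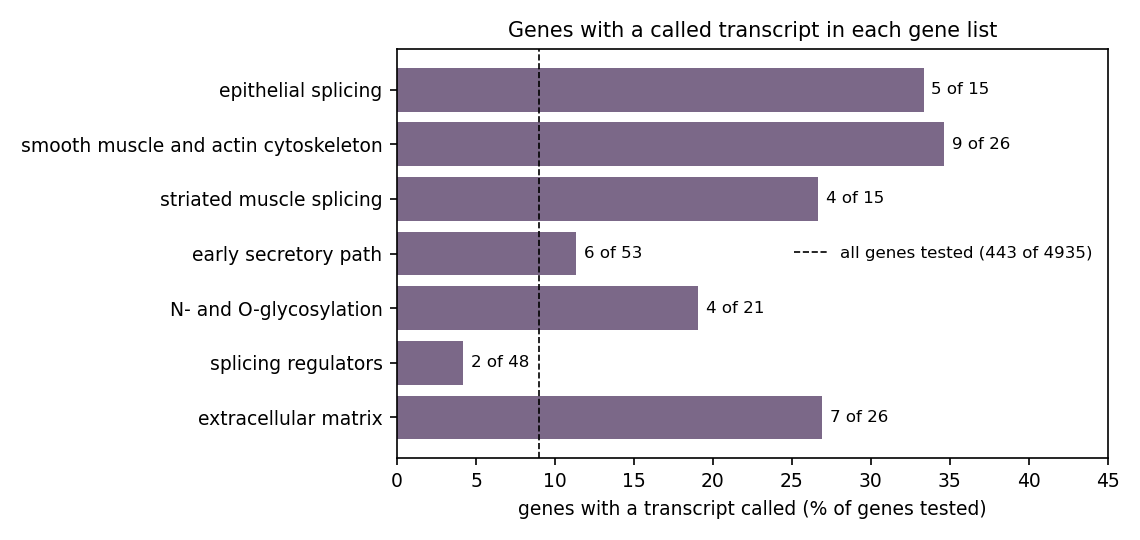
Percent of the tested genes with a called transcript (x axis) in 7 gene lists, with the number of genes beside each bar and a dashed line at 8.98% for all 4935 genes. Smooth muscle and actin genes stand highest at 34.6%, and splicing regulators at 4.17% lie below the line.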

How the data were processed

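For RNA-seq, the authors trimmed the reads with cutadapt, quantified them with Salmon 1.9.0 on an annotation merged from Ensembl and Iso-seq isoforms, and deposited TPM per transcript. For Iso-seq, they deposited counts of full-length reads per isoform and library, without normalization, with the SQANTI3 class of each isoform on Sscrofa11.1. Reads of full splice matches were credited here to the annotated transcript.

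Shares in percent were fitted with limma 3.58.1 (lmFit, eBayes with trend, R 4.3.3), with gland and breed as terms, two-sided, on all 13811 transcripts. Calls needed a Benjamini-Hochberg adjusted p below 0.05 and 10 points. SE are from limma and differences are vesicular minus bulbourethral. In simulated data 55% of changes of 20 points and 88.5% of 40 points were recovered, with 9 false calls. The simulated noise was normal and independent between transcripts. Simulated shares were not held within the bounds of a percentage or to the total of their gene, so these rates may not hold for the real shares. TPM keep no number of reads per transcript, and the read totals stated by the study were not used. The other libraries of the series served as described values and in 1 alternative fit of all 30 libraries.

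Named genes are the 12 largest exchanges without overlap, the 2 largest per class of structure and the 3 largest of each list (all where 5 or fewer were called). OGDH, MAPK14, CALCOCO1, CAMSAP3, DCTN2 and MYL6 were added after their values were seen. Members and lists were chosen with earlier results of these data known. Pairs were classed by exon coordinates in Python 3.11.15. 1 transcript that the naming rule picks and the sequence of 1 further exon are not reported here.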

Additional observations from a re-analysis of the deposited data

Results flagged for a closer look

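Of 174 groups of 6 libraries (87 named transcripts in each gland), 17 had 1 library set apart from the other 5 by more than Dixon's 95% limit, where chance gives about 1 in 20 groups. DSE vesicular gland replicate 1 stood apart for ELF5 raised (28.1%), AGPAT5 lowered (11.7%), DNM2 lowered (1.62%) and FN1 lowered (40.2%). DSE bulbourethral gland replicate 3 did so for PTPN18 raised (43.7%) and lowered (35.0%), CIZ1 raised (23.1%) and DNAJC3 lowered (88.3%). DSE bulbourethral gland replicate 1 did so for PCIF1 raised (5.88%) and RBM47 raised (2.66%). BMI bulbourethral gland replicate 3 did so for SPTAN1 raised (5.83%) and for CAMSAP3 raised (6.24%) and lowered (93.4%). The others were BMI vesicular gland replicate 3 for DEGS2 raised (98.5%) and lowered (1.5%), BMI bulbourethral gland replicate 2 for DNM2 lowered (5.42%) and BMI vesicular gland replicate 1 for BIN1 lowered (13.2%).

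Over all tested transcripts, DSE vesicular gland replicate 1 lay farthest from the mean of its breed and gland (mean absolute deviation 7.27 points), followed by DSE bulbourethral gland replicate 2 (7.06), with the other 10 libraries at 3.89 to 6.32 points. DSE vesicular gland replicate 1 and DSE bulbourethral gland replicate 2 were also the libraries of these glands with the lowest median transcript integrity number, a measure of RNA quality, in the study's quality table, and its part in the results was not tested.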

How the results depend on the processing

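No named transcript changed direction under any alternative. Counts are given as transcripts called, genes called and genes with a switch of the leading transcript, where those of the report are 649, 443 and 68. Without a minimum mean share, when 47938 transcripts were tested, they were 373, 263 and 37, with 5 interactions. At 20 points 278 transcripts and 191 genes passed. With the replicate block they were 290, 217 and 30, and 282 of the 290 were among the 649. The labels do not say that replicate numbers pair samples. The deviations of same-numbered samples correlated at 0.159, 0.138 and 0.0945 in BMI and at -0.487, -0.475 and 0.334 in DSE. The highest correlation, 0.635, was between DSE vesicular gland replicate 1 and DSE bulbourethral gland replicate 2. Not every sample correlated best with its own number. With 3 libraries per breed and gland, these correlations cannot show whether same-numbered samples came from the same animal. Of the 87 named transcripts, 57 kept their call under the block. BMI alone gave 22, 15 and 7 and DSE alone 16, 11 and 4 (chosen after seeing the data). One fit of all 30 libraries gave 1 interaction. Leaving out each library gave 433 transcripts (without BMI bulbourethral gland replicate 3) to 937 (without DSE vesicular gland replicate 1, with 568 of the 649 among them), 301 to 661 genes, 39 (without BMI vesicular gland replicate 3) to 89 leading switches and 0 to 2 interactions. Without DSE vesicular gland replicate 1 and DSE bulbourethral gland replicate 2 together (chosen after seeing the data), 844 transcripts passed, with 1 interaction. The cause of these changes was not tested. Over the settings that keep all libraries of both breeds and over those that leave 1 out, genes called ranged from 3 to 6 for ESRP targets, 5 to 13 for actin genes, 0 to 5 for muscle splicing, 1 to 11 for the early secretory path, 1 to 8 for glycosylation, 2 to 5 for splicing regulators and 1 to 7 for extracellular matrix. A logit scale, a pseudocount of 0.1, a minimum of 1 or 10 TPM, no breed term and no trend kept all 3 counts within 1.5 times, and summing transcripts with the same introns changed none. Single calls were less stable than these counts. Among the 87 named transcripts, 8 lost their call on the logit scale, 4 with the pseudocount, 13 at a minimum of 1 TPM and 23 without a minimum mean share. The fit at 1 TPM called 71.0% of the 649. Precision is limited by 6 libraries a gland and by TPM without read counts per transcript.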
